A study of Mus musculus with 35 samples.

Results

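The genes described are 10 cytokine receptor genes of T cells: Il7r, Il15ra, Il4ra, Il21r, Il12rb1, Il12rb2, Il18r1, Il18rap, Il6ra and Il10ra. They were chosen by name, and each matched a single Ensembl identifier among the 48709 mouse genes counted. RNA was sequenced from OT-I cytotoxic T lymphocytes (CTLs), CD8+ T cells taken from the spleens of mice that carry a transgenic T-cell receptor against an ovalbumin peptide. In all groups the cells had been primed with antibodies to CD3 and CD28 and expanded in IL-2, so culture without IL-2 was a withdrawal of a cytokine on which the cells had been grown. The 7 groups of 5 biological replicates were cells at the start of the experiment (0 h) and cells kept for 24 h at pH 7.4, pH 7 or pH 6.6, either without IL-2 or with 200 IU/mL of IL-2. As a model, these cells share a single antigen specificity, were not restimulated during the 24 h, and were cleared of dead cells on Ficoll before RNA extraction. The age of the mice was not given in the sources used here.

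Cytokine receptors are built from chains that bind the cytokine and chains that signal. IL-7, IL-4 and IL-21 are bound by chains that pair with the common gamma chain encoded by Il2rg, a chain that IL-15 also uses. These cytokines signal through JAK1, JAK3 and STAT proteins. The IL-12 receptor pairs IL-12Rb1 with IL-12Rb2 and signals through TYK2, JAK2 and STAT4, whereas the IL-18 receptor pairs a binding chain (Il18r1) with an accessory chain (Il18rap) and signals through MyD88 and IRAK kinases. IL-6Ra needs gp130 (Il6st), and IL-10Ra needs IL-10Rb. In CD8+ T cells IL-7 and IL-15 are known for keeping memory cells alive, and IL-12 and IL-18 for raising interferon gamma.

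Library totals on genes ranged from 16721319 to 34033340 reads. Of 13819 genes that passed the filter on low counts, all 10 receptor genes were among them. Levels are given in CPM, the read count scaled to library size, with library sizes adjusted by the TMM method. Il6ra was close to the limit of detection, with between 0 and 69 reads per library and 0 reads in 1 library. All 10 markers on a list of CD8 T-cell genes had a mean above 1 CPM in every group. The defining genes of B cells (Ms4a1, Pax5), plasmacytoid dendritic cells (Siglech), neutrophil precursors (Elane) and red cells (Hbb-bs) had 0 reads in all 35 libraries. The summed level of 6 dendritic-cell markers moved with pH. It was 20.8 to 31.5 CPM at pH 6.6 against 3.17 to 8.63 CPM at pH 7.4 without IL-2, and 12.7 to 23.3 CPM against 0.331 to 0.568 CPM with IL-2. That sum was mostly Zbtb46 and Flt3, whereas Xcr1 stayed at or below 0.195 CPM and Clec9a at or below 0.0470 CPM, and Siglech and Cd209a had 0 reads. The macrophage list was mostly Cd68, with Csf1r, Adgre1 and Lyz2 at or below 0.286 CPM. With IL-2 that list stood at 16.6 to 31.5 CPM at pH 6.6 against 5.48 to 11.4 CPM at pH 7.4. Without IL-2 it stood at 17.8 to 33.7 CPM against 10.6 to 19.7 CPM, which overlapped. The CD8 T-cell list, which includes effector genes, stood at 4026 to 5439 CPM at pH 6.6 and at 10425 to 13234 CPM at pH 7.4 with IL-2. Without IL-2 its values were 3346 to 3867 CPM at pH 6.6 and 3917 to 4319 CPM at pH 7.4. The 5 NK-cell markers were Klrb1c (8.27 to 94.9 CPM), Fcer1g (4.04 to 24.5 CPM), Tyrobp (0.258 to 3.99 CPM), and Ncr1 and Klra8 at or below 0.0694 CPM. They summed to 12.9 to 22.7 CPM at pH 6.6 against 33.1 to 56.2 CPM at pH 7.4 without IL-2. With IL-2 the sum was 24.3 to 43.2 CPM against 51.3 to 61.7 CPM. The 4 CD4 T-cell markers, mostly Zbtb7b, summed to 17.4 to 63.8 CPM over all groups with overlap of acidic and control groups. Foxp3 was at or below 5.50 CPM, Cd4 at or below 2.48 CPM and Cd40lg at or below 0.0842 CPM. Mitochondrial genes held 0.701% to 1.08% of gene counts at pH 6.6 and 1.47% to 2.16% at pH 7.4 without IL-2, and 0.896% to 1.15% and 1.36% to 2.27% with it. Their part in the receptor results was not tested. In bulk RNA, fewer cells with a receptor and less of its RNA per cell cannot be told apart.

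Over the 7 groups the receptor genes covered a wide span. The highest group mean was 50.0 times the lowest for Il7r, 10.6 times for Il6ra and 8.44 times for Il12rb1. The ratio was 2.97 for Il21r, 2.46 for Il18r1, 2.43 for Il18rap and 2.11 for Il12rb2, and it stayed at 1.64 for Il15ra, 1.49 for Il10ra and 1.39 for Il4ra.

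**Figure D1:**
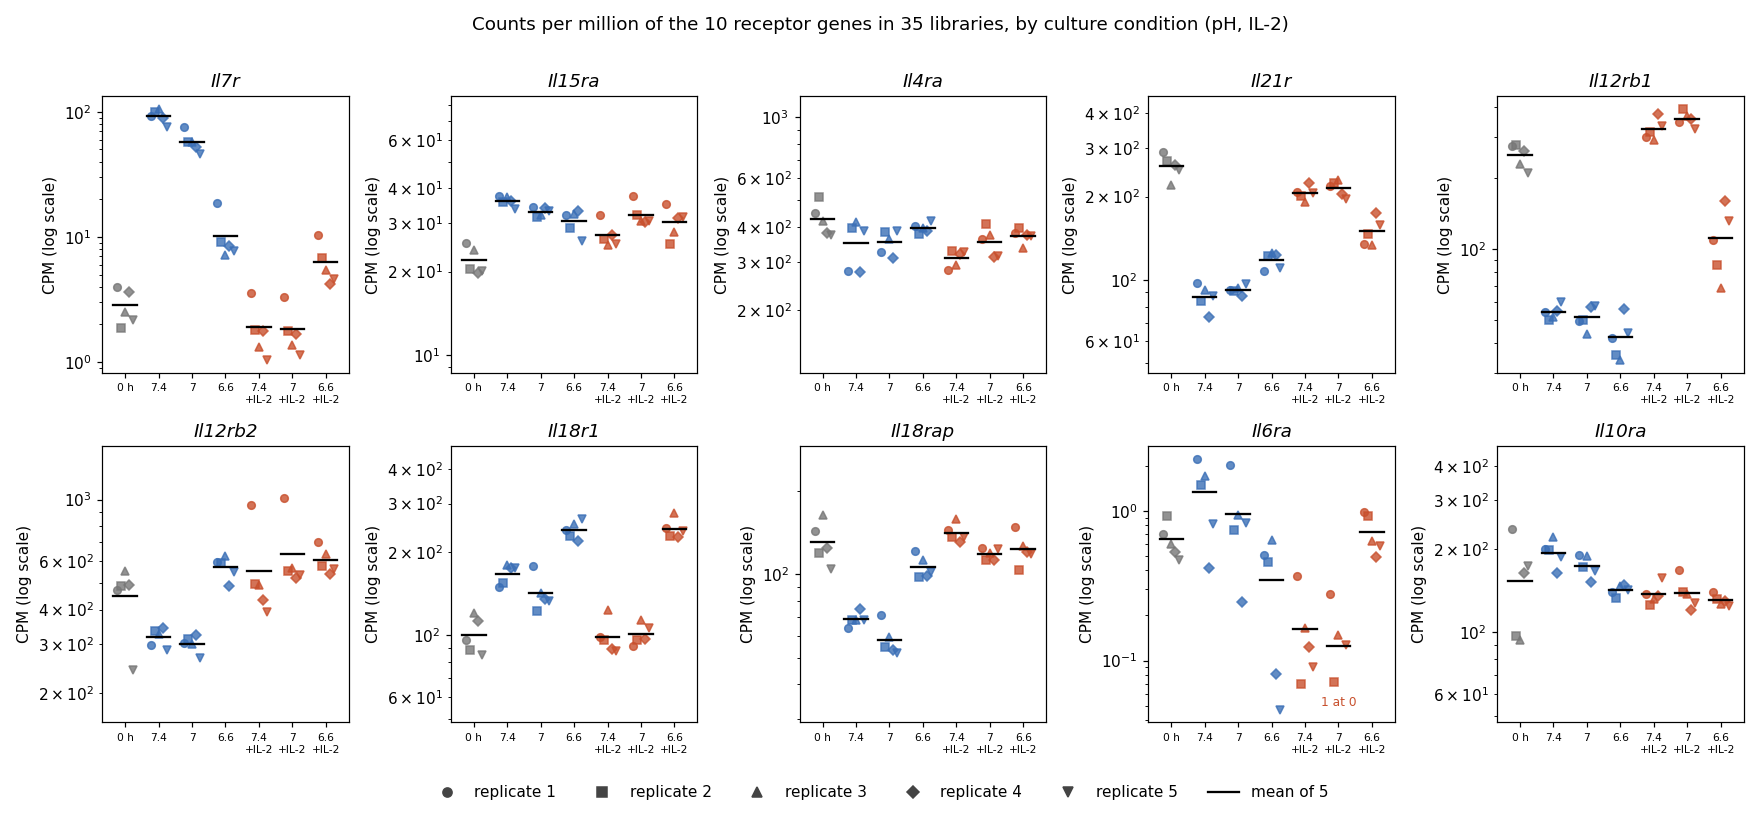
Level of each of the 10 receptor genes in every library, in CPM on a log axis, by group. Each point is a library with its shape giving the replicate number, horizontal bars are group means of 5 libraries, and colours mark 0 h (grey), culture without IL-2 (blue) and culture with IL-2 (red). Il7r stands at 74.9 to 106 CPM at pH 7.4 without IL-2 and at 1.04 to 3.57 CPM with IL-2.

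Il7r encodes the IL-7 receptor alpha chain, which T cells lower when they are activated or fed by IL-2. It lies at chr15:9505788-9530176 (GRCm38) on the minus strand. The bases before a start site are shown because Il7r had the widest span of the 10 genes. The start listed for it lies inside the annotated gene, downstream of its outermost 5′ end. Promoter sequences are from RefSeq (GRCm38.p6), 8 of the 10 genes had an entry, and exonic bases are left out. Both strands were searched for a STAT site (TTCNNNGAA), a FOXO site (TGTTTAC), a T-box site (AGGTGTGA), a CRE (TGACGTCA) and an E-box (CACGTG). Capitals mark a match. The STAT letters occurred in the upstream bases of 7.02% of 32851 promoters, the FOXO letters in 3.17%, the T-box letters in 1.12%, the CRE in 1.55% and the E-box in 6.02%. The stretch chr15:9529877-9530040 held a match to the STAT letters.
Il7r, 5′ to 3′ on the minus strand: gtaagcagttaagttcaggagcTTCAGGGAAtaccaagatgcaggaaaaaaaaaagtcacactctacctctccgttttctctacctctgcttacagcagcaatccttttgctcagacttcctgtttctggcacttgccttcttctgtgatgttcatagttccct
A match is a description of the letters only.

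Il7r rose when IL-2 was withdrawn, and the rise was much smaller in acid medium. At 0 h its level in replicates 1 to 5 was 3.99, 1.87, 2.53, 3.62 and 2.19 CPM. After 24 h at pH 7.4 without IL-2 it was 91.7, 100.1, 106, 89.8 and 74.9 CPM, and at pH 6.6 without IL-2 it was 18.6, 9.18, 7.22, 8.51 and 7.70 CPM. No library at pH 6.6 reached the lowest library at pH 7.4, and all 5 were above the highest at 0 h. The log2 fold change at pH 7.4 without IL-2 was 5.08 ± 0.18 (SE) against 0 h (edgeR's quasi-likelihood test, adjusted p = 8.34e-22), and pH 6.6 against pH 7.4 without IL-2 was -3.27 ± 0.16 (adjusted p = 1.6e-17).

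With IL-2, acidity moved Il7r the other way. At pH 7.4 with IL-2 its level was 3.57, 1.805, 1.31, 1.78 and 1.04 CPM, and at pH 6.6 with IL-2 it was 10.3, 6.80, 5.41, 4.23 and 4.62 CPM. All 5 acid libraries were above the highest at pH 7.4. The log2 fold change was 1.72 ± 0.19 (edgeR, adjusted p = 1.08e-09). IL-2 lowered Il7r by a log2 fold change of -5.68 ± 0.19 at pH 7.4 (adjusted p = 4.02e-23) and of -5.01 ± 0.18 at pH 7 (adjusted p = 1.08e-21), against -0.69 ± 0.16 at pH 6.6 (adjusted p = 0.00198). The interaction of pH 6.6 with IL-2 was 4.99 ± 0.25 on the log2 scale (adjusted p = 1.04e-17), and 5 of 5 replicates had its sign. The fall at pH 6.6 was not called without the replicate block (adjusted p = 0.0642).

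**Figure D2:**
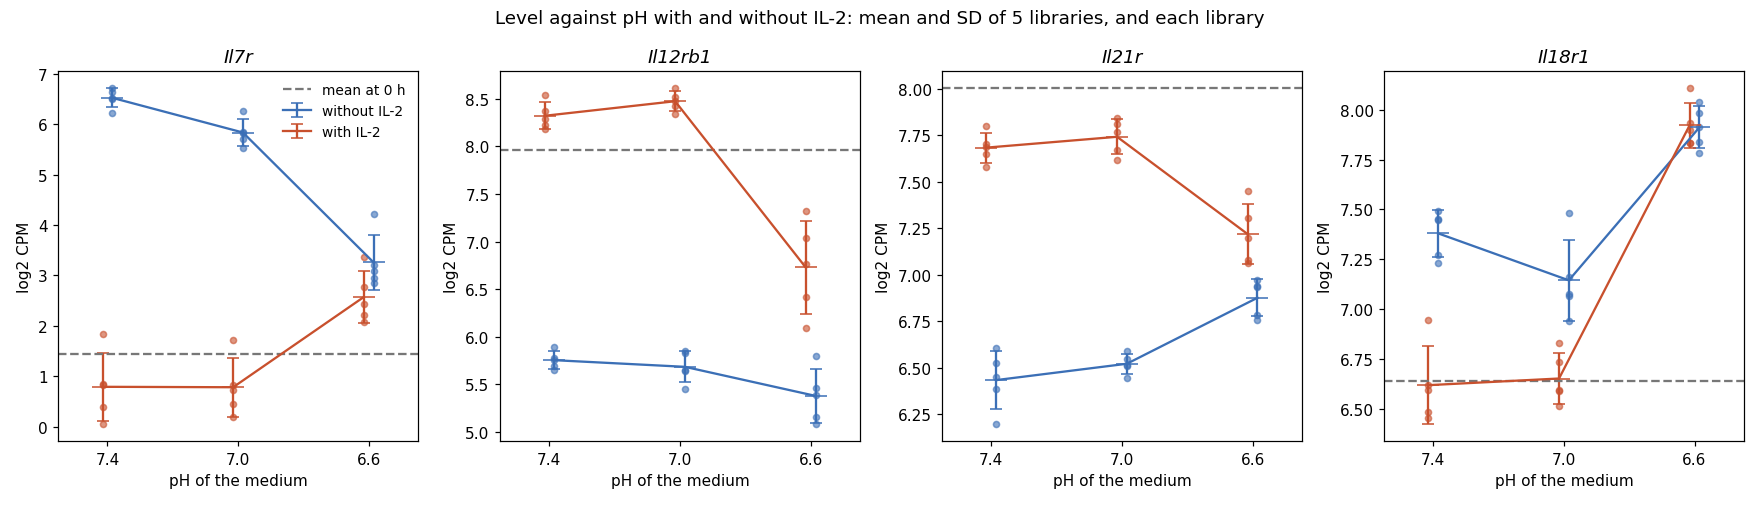
Level (log2 CPM) of Il7r, Il12rb1, Il21r and Il18r1 against culture pH, with IL-2 (red) and without (blue). Points are libraries, lines join group means with their SD over 5 libraries, and the dashed line is the mean at 0 h. For Il7r the distance between the lines shrinks from a log2 difference of 5.68 in size at pH 7.4 to 0.69 at pH 6.6, and for Il18r1 the lines meet at pH 6.6.

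Il15ra encodes the chain that binds and presents IL-15, and lies 12097 bases from Il2ra on chromosome 2. Its levels moved little. At pH 7.4 its 5 libraries held 37.5, 35.6, 37.1, 35.9 and 33.6 CPM without IL-2 and 31.96, 26.1, 25.04, 27.2 and 25.2 CPM with it. Every library with IL-2 was below every library without. The log2 fold change was -0.41 ± 0.07 (edgeR, adjusted p = 6.69e-06). At pH 7 it was -0.04 ± 0.07 (adjusted p = 0.625) and at pH 6.6 it was -0.01 ± 0.07 (adjusted p = 0.908), and the interaction with pH 6.6 was 0.40 ± 0.10 (adjusted p = 0.00125). Acid medium lowered Il15ra without IL-2 (log2 fold change -0.24 ± 0.07, adjusted p = 0.00473). With IL-2 the value was 0.16 ± 0.07 (adjusted p = 0.0552), and it was called under 7 of 12 alternatives, with values of 0.20 to 0.28. Those were size factors by relative log expression (adjusted p = 0.00834), total counts (adjusted p = 0.0076), DESeq2 (adjusted p = 0.00407), the stricter filter (adjusted p = 0.0142), the fit of only the groups compared (adjusted p = 0.0132), and the fits without replicate 1 (0.23, adjusted p = 0.016) or replicate 2 (0.28, adjusted p = 0.00612).

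Il4ra encodes the IL-4 receptor alpha chain, shared with the IL-13 receptor. It had the narrowest span of the 10 genes. At pH 7.4 its libraries held 277, 397, 419, 275 and 387 CPM without IL-2 and 280.5, 329, 291, 321 and 325 CPM with IL-2, which overlapped (log2 fold change -0.17 ± 0.09, adjusted p = 0.0841). The value was -0.28 without replicate 1 (adjusted p = 0.0148), -0.27 without replicate 4 (adjusted p = 0.0192) and -0.06 without replicate 3. It was also called with scaling by total counts (-0.33, adjusted p = 0.00308) and with the stricter filter (-0.22, adjusted p = 0.0299). At pH 6.6 with IL-2 it held 381, 396, 335, 376 and 371 CPM, all above the libraries at pH 7.4 with IL-2. That rise was 0.27 ± 0.09 on the log2 scale (edgeR, adjusted p = 0.01). Without IL-2 the value for pH 6.6 was 0.19 ± 0.09 (adjusted p = 0.0692). That rise was called with size factors by relative log expression (0.23, adjusted p = 0.0263), with DESeq2 (0.23, adjusted p = 0.0218) and without replicate 3 (0.29, adjusted p = 0.0186). The interaction was 0.08 ± 0.13 (adjusted p = 0.614). Of its exon bases, 9.51% are shared with an antisense gene, Gm44876.

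Il21r encodes the IL-21 receptor and lies next to Il4ra on chromosome 7, with 23955 bases between them. Its group means spanned a ratio of 2.97, against 1.39 for Il4ra. The stretches before both start sites are shown because the genes are adjacent.
Il21r, chr7:125603179-125603428, plus strand: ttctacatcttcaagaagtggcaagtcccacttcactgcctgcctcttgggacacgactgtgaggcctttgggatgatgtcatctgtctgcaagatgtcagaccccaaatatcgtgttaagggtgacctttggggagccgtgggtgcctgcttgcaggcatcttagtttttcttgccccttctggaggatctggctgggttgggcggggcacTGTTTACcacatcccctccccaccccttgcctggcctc
Il4ra, chr7:125552021-125552119, plus strand: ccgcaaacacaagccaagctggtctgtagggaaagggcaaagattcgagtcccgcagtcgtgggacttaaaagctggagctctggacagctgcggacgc
The Il21r stretch held the FOXO letters, in capitals, and the Il4ra stretch held none of the motifs searched.

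Il21r was high with IL-2 and low without it. At 0 h it was 290.2, 269.7, 220.0, 261 and 251 CPM, and at pH 7.4 it was 97.6, 83.6, 92.2, 73.4 and 87.6 CPM without IL-2 and 208, 201, 192, 223 and 206 CPM with it. The libraries with and without IL-2 did not overlap. IL-2 raised it by a log2 fold change of 1.24 ± 0.08 at pH 7.4 (edgeR, adjusted p = 3.13e-15), 1.22 ± 0.08 at pH 7 (adjusted p = 6.57e-15) and 0.35 ± 0.08 at pH 6.6 (adjusted p = 0.00201). Acid medium changed it in opposite directions. At pH 6.6 it was 108, 122, 125, 123 and 110.1 CPM without IL-2, a rise of 0.44 ± 0.08 (adjusted p = 2.31e-05), and 135, 147, 134, 175 and 158 CPM with IL-2, a log2 fold change of -0.46 ± 0.08 (adjusted p = 7.04e-06). The interaction was -0.90 ± 0.12 (adjusted p = 3.87e-08).

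The chains of the IL-12 receptor responded unequally. Il12rb1, the chain shared with the IL-23 receptor, was the gene that IL-2 raised most among the 10. At pH 7.4 it held 54.0, 50.3, 51.7, 54.95 and 59.5 CPM without IL-2 and 299, 312, 291, 372 and 333 CPM with IL-2. The groups were far apart, and 0 h libraries (273, 277, 229.9, 260.3 and 211 CPM) were near those with IL-2. IL-2 raised it by a log2 fold change of 2.56 ± 0.13 at pH 7.4 (edgeR, adjusted p = 1.01e-18), 2.80 ± 0.13 at pH 7 (adjusted p = 2.07e-19) and 1.38 ± 0.12 at pH 6.6 (adjusted p = 3.61e-10).

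At pH 6.6 with IL-2, Il12rb1 fell to 109, 85.4, 68.3, 161 and 132 CPM, all below the libraries at pH 7.4 with IL-2 and above those at pH 7.4 without it. The log2 fold change for pH was -1.56 ± 0.12 (edgeR, adjusted p = 2.42e-13). Without IL-2 it was -0.37 ± 0.12 (adjusted p = 0.00798), with overlapping libraries of 41.9, 35.6, 33.9, 55.9 and 44.2 CPM at pH 6.6. The interaction was -1.19 ± 0.17 (adjusted p = 2.87e-07).

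Il12rb2, the chain that recruits STAT4 to the IL-12 receptor, lies at chr6:67291318-67376188 on the minus strand. Of its exon bases, 40.04% are also covered by Serbp1 on the opposite strand. The libraries were stranded, but the setting used for counting was not given in the sources used here, so the reads of the genes may not be fully separated. Serbp1 had group means of 745 CPM at 0 h, 396, 379 and 562 CPM at pH 7.4, 7 and 6.6 without IL-2, and 1064, 876 and 580 CPM with IL-2. Its part in the Il12rb2 values was not tested. The bases before the start site are shown because the promoter lies away from that overlap.
Il12rb2, chr6:67376189-67376438, minus strand: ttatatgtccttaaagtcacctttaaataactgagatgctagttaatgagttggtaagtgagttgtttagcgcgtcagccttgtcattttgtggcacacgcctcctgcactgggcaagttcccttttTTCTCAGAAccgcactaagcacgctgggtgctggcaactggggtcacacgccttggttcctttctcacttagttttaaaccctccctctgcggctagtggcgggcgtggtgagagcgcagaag
It held the STAT letters, in capitals.

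Without IL-2, Il12rb2 rose in acid medium. Its libraries held 298, 334, 327, 344 and 287 CPM at pH 7.4 and 595, 592, 627, 485 and 547 CPM at pH 6.6, with no overlap. The log2 fold change was 0.83 ± 0.16 (edgeR, adjusted p = 2.44e-05). With IL-2 the libraries held 954, 497, 490.3, 433 and 393 CPM at pH 7.4 and 704, 577, 634, 540.1 and 562 CPM at pH 6.6. Replicate 1 stood above the others at pH 7.4, and the groups overlapped (log2 fold change 0.17 ± 0.16, adjusted p = 0.325). Without replicate 1 the value was 0.43 (adjusted p = 0.00391). The effect of IL-2 at pH 7.4 was 0.74 ± 0.16 (adjusted p = 7.51e-05), and 0.42 without replicate 1 (adjusted p = 0.00384). At pH 6.6 it was 0.08 ± 0.16 (adjusted p = 0.756). The interaction of -0.66 ± 0.22 (adjusted p = 0.00879) was not called without replicate 1 (-0.35, adjusted p = 0.0925), without replicate 2 (adjusted p = 0.0631) or with scaling by total counts (adjusted p = 0.0809).

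Per kilobase of exon, Il12rb1 stood at 0.548 ± 0.157 (SD, n = 5) of the level of Il12rb2 at 0 h. After 24 h at pH 7.4 the ratio was 0.158 ± 0.0214 without IL-2 and 0.599 ± 0.206 with IL-2, and at pH 6.6 it was 0.0704 ± 0.0223 and 0.174 ± 0.0705. At pH 6.6 the 5 libraries with IL-2 ranged from 0.0995 to 0.275. These ratios carry the overlap with Serbp1 and are given without a test.

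The IL-18 receptor genes lie side by side on chromosome 1, with 14508 bases between them. Il18r1 encodes the binding chain and Il18rap the accessory chain without which the receptor does not signal. The stretches before their start sites are shown because the chains moved in opposite directions with IL-2. Il18r1 has several listed starts, of which the last lies inside the annotated gene, and another match to the STAT letters fell within an exon and is not printed.
Il18r1, first start, chr1:40465416-40465551, plus strand: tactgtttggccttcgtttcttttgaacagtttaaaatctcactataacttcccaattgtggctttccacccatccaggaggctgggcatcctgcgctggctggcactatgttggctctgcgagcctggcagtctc
Il18r1, last start, chr1:40465811-40465969, plus strand: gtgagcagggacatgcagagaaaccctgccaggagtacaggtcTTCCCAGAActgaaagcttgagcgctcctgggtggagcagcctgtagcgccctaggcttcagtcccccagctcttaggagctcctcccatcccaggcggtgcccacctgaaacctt
Il18rap, chr1:40515112-40515361, plus strand: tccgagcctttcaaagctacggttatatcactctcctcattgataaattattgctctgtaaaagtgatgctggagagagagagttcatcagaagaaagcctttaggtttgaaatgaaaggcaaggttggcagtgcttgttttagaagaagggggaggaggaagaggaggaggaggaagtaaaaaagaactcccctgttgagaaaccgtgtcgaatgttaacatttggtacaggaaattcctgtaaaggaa
The last Il18r1 stretch held the STAT letters, in capitals, and no motif searched was in the others.

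IL-2 lowered Il18r1 and raised Il18rap at pH 7.4. Il18r1 held 150.0, 155, 180.2, 175 and 175 CPM without IL-2 and 98.4, 96.5, 123, 89.4 and 87.7 CPM with it. Il18rap held 64.1, 68.4, 68.2, 74.9 and 68.4 CPM without IL-2 and 144, 137, 159, 131 and 136 CPM with it. Neither gene's groups overlapped. The log2 fold changes were -0.76 ± 0.09 for Il18r1 (edgeR, adjusted p = 1.46e-09) and 1.03 ± 0.08 for Il18rap (adjusted p = 1.9e-13). At pH 7 they were -0.50 ± 0.09 (adjusted p = 4.37e-06) and 1.04 ± 0.08 (adjusted p = 2.34e-13).

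Acid medium raised Il18r1 with and without IL-2. At pH 6.6 it held 241, 229, 253, 220.1 and 263 CPM without IL-2 and 245, 228, 276, 228 and 239 CPM with IL-2, each library above all those at pH 7.4 in the same medium. The rise was 0.53 ± 0.09 on the log2 scale without IL-2 (edgeR, adjusted p = 2.46e-06) and 1.30 ± 0.09 with it (adjusted p = 6.68e-15), and the interaction was 0.77 ± 0.12 (adjusted p = 1.64e-06). At pH 6.6 the effect of IL-2 on Il18r1 was 0.01 ± 0.09 (adjusted p = 0.961).

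Il18rap rose at pH 6.6 without IL-2, to 121, 97.6, 112, 98.5 and 102 CPM, by 0.62 ± 0.08 on the log2 scale (edgeR, adjusted p = 5.34e-08). With IL-2 it held 148, 104, 127, 121 and 119 CPM, overlapping pH 7.4, and the log2 fold change was -0.20 ± 0.08 (adjusted p = 0.0255). That small fall was lost under size factors by relative log expression (adjusted p = 0.118), with total counts (adjusted p = 0.185) and with DESeq2 (adjusted p = 0.115). The stricter filter (adjusted p = 0.0707), the fit of only the groups compared (adjusted p = 0.105) and the fit without the replicate block (adjusted p = 0.0749) also lost it. So did leaving out replicate 2 (adjusted p = 0.48) or replicate 3 (adjusted p = 0.0915). The interaction of -0.82 ± 0.11 had an adjusted p of 1.52e-07.

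The balance of the chains differed between media, which is given as a description without a test. Per kilobase of exon, the level of Il18r1 over that of Il18rap was 1.085 ± 0.123 (SD, n = 5) at 0 h and 0.979 ± 0.0677 at pH 7.4 with IL-2. It was 3.40 ± 0.227 at pH 7.4 without IL-2, 3.20 ± 0.298 at pH 6.6 without IL-2, and in acid medium containing IL-2 it was 2.78 ± 0.314. The lowest library at pH 6.6 with IL-2 (2.32) was above the highest at pH 7 with IL-2 (1.34).

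**Figure D3:**
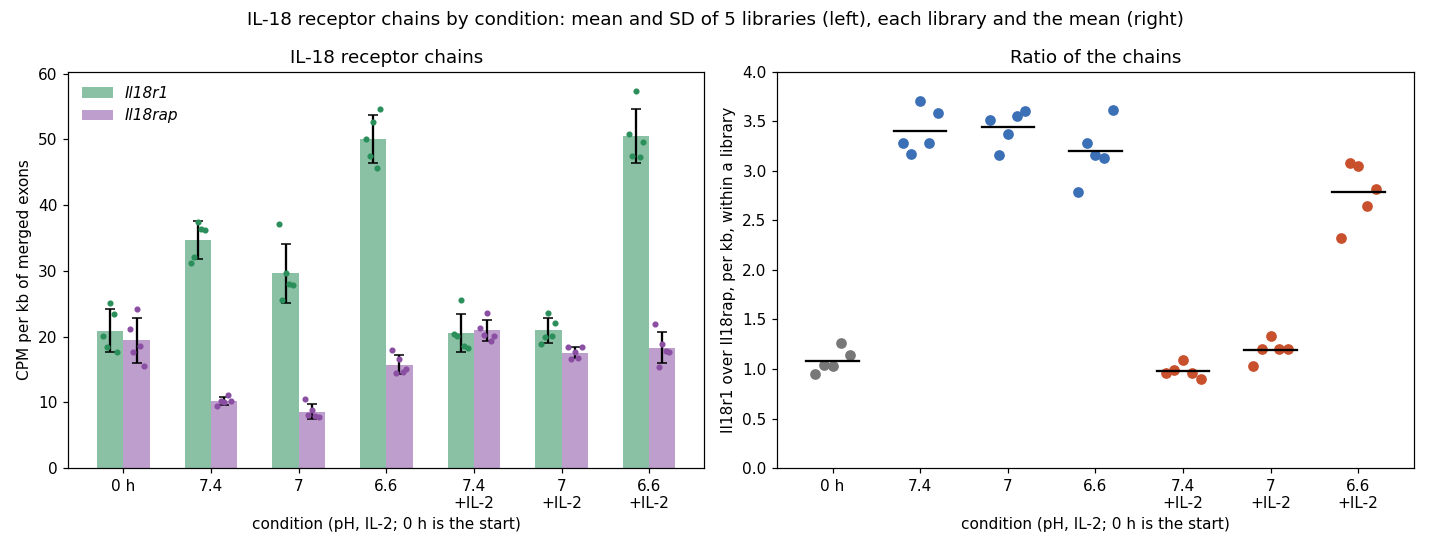
Left, mean level of Il18r1 and Il18rap in CPM per kilobase of exon by group, bars from 0 with SD over 5 libraries. Right, ratio of Il18r1 to Il18rap in each library, with group means; the ratio lies between 0.903 and 1.34 at 0 h and in the pH 7.4 and pH 7 cultures given IL-2, and between 2.32 and 3.70 in the other groups.

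Il6ra encodes the IL-6 binding chain, whose loss is a known feature of activated T cells. Its CPM values come from few reads. It held 2.23, 1.49, 1.69, 0.417 and 0.813 CPM at pH 7.4 without IL-2, and 0.365, 0.0694, 0.164, 0.124 and 0.0903 CPM with IL-2. The groups did not overlap, and the highest library with IL-2 had 9 reads. IL-2 lowered it by a log2 fold change of -2.99 ± 0.38 (edgeR, adjusted p = 1.07e-08). At pH 6.6 it held 0.505, 0.457, 0.636, 0.0818 and 0.0470 CPM without IL-2, a fall against pH 7.4 (-1.91 ± 0.33, adjusted p = 6.21e-06). Those libraries had 1 to 14 reads and overlapped the libraries at pH 7.4 without IL-2. With IL-2 it held 0.982, 0.920, 0.629, 0.493 and 0.583 CPM at pH 6.6, a rise (2.21 ± 0.41, adjusted p = 1.36e-05). As for Il7r, the effect of acidity changed sign with IL-2, and the interaction was 4.12 ± 0.52 (adjusted p = 2.93e-08).

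Il10ra encodes the binding chain for IL-10, a cytokine that restrains T cells. Its libraries held 200.1, 199, 221, 164 and 188 CPM at pH 7.4 without IL-2 and 137, 126, 133, 135 and 158 CPM with IL-2. All libraries with IL-2 were lower. The log2 fold change was -0.50 ± 0.14 (edgeR, adjusted p = 0.00133). At pH 7 it was -0.33 ± 0.14 (adjusted p = 0.0277), which was not called without replicate 3, 4 or 5 or with the looser filter. Acid medium lowered it without IL-2 (-0.45 ± 0.14, adjusted p = 0.00437), to between 133 and 148 CPM, and the value with IL-2 was -0.08 ± 0.14 (adjusted p = 0.62). The interaction of 0.38 ± 0.19 was not called (adjusted p = 0.0845). It was called with total counts (0.60, adjusted p = 0.00586), the stricter filter (0.43, adjusted p = 0.0484) and only the groups compared (0.38, adjusted p = 0.00257). At 0 h its 5 libraries were spread from 94.2 to 237 CPM, the widest spread of any group for this gene.

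Counted together, acidity at pH 6.6 against pH 7.4 changed 9 of the 10 receptor genes without IL-2, with 4 higher and 5 lower, where 67% of all genes tested were called (31.6% higher, 35.4% lower). With IL-2 it changed 7, with 4 higher and 3 lower, where 76.3% were called (35.4% higher, 40.9% lower). Among the 3 lower, the call of Il18rap was lost under the alternatives given above. The interaction of pH 6.6 with IL-2 was called for 8, with 4 higher and 4 lower, where 67% of all genes were called (34.3% higher, 32.8% lower). IL-2 changed 9 of 10 at pH 7.4 (4 higher, 5 lower; background 80.4%, 39.3% higher and 41.1% lower) and 8 of 10 at pH 7 (4 higher, 4 lower; background 77.2%, 37.6% higher and 39.5% lower). At pH 6.6 it changed 5 of 10 (4 higher, 1 lower), against a background of 23.7% (13.2% higher, 10.6% lower). Read against these backgrounds, the counts alone do not set the receptor genes apart. The count for IL-2 at pH 6.6 was 2 without the replicate block. The genes then lost were Il7r, Il18rap (log2 fold change 0.22, adjusted p = 0.0464, and 0.124 without the block) and Il6ra (1.12, adjusted p = 0.0207, and 0.18 without the block). Il18rap was also lost without replicate 1, 3, 4 or 5 and with the looser filter, and Il6ra without replicate 4 or 5. The comparisons share groups, so their counts are not independent.

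The median log2 fold change over the 10 genes was -0.03 for pH 6.6 without IL-2, 0.16 for pH 6.6 with IL-2 and -0.29 for IL-2 at pH 7.4. Over all genes tested the medians were -0.03, -0.07 and -0.04. Rises and falls within the list offset each other.

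**Figure D4:**
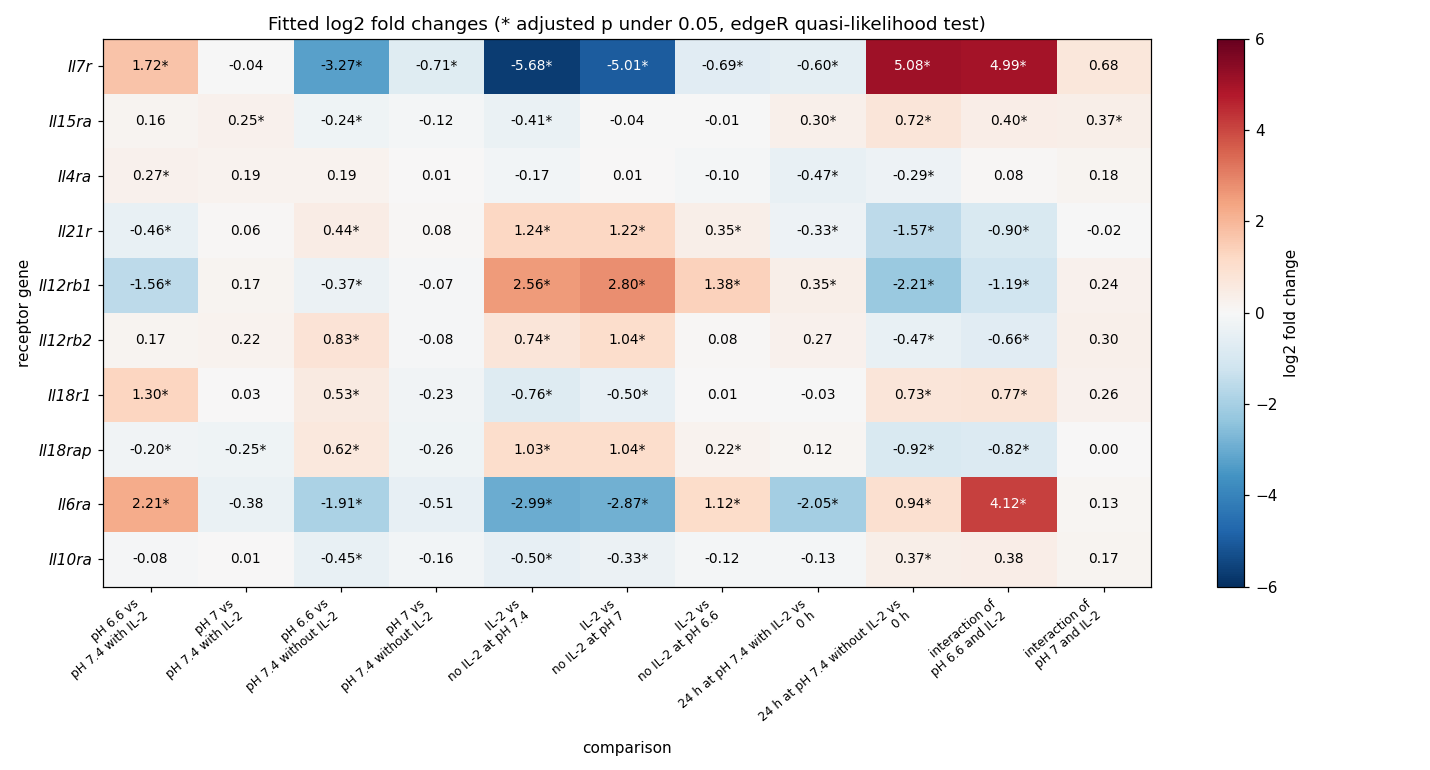
Log2 fold change of each receptor gene (rows) in each of the 11 comparisons (columns), red higher and blue lower, with the value printed and an asterisk where edgeR's adjusted p was under 0.05. Il7r runs from -5.68 for IL-2 at pH 7.4 to 5.08 for withdrawal at pH 7.4 against 0 h, and the columns for pH 7 against pH 7.4 hold few asterisks.

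The milder step to pH 7 did little. With IL-2, 2 of 10 genes were called against a background of 19% (9.15% higher, 9.83% lower). Il15ra rose (log2 fold change 0.25 ± 0.07, edgeR, adjusted p = 0.0169) and Il18rap fell (-0.25 ± 0.08, adjusted p = 0.0249). Neither was called without the replicate block (adjusted p = 0.0665 and 0.0853), without replicate 2 or 3, or with the looser filter. Il18rap was also lost without replicate 4 and with total counts. Without IL-2 only Il7r was called, against a background of 1.68% (1.36% higher, 0.318% lower). Its libraries at pH 7 held 76.2, 56.9, 57.5, 52.0 and 46.4 CPM, overlapping those at pH 7.4 in the highest library, while all 5 replicates were lower at pH 7. The fall was -0.71 ± 0.14 on the log2 scale (adjusted p = 0.00344), and it was not called without the replicate block (adjusted p = 0.406) or without replicate 2 (adjusted p = 0.0605). The interaction of pH 7 with IL-2 was called for Il15ra alone (0.37 ± 0.10, adjusted p = 0.0319) against a background of 4.79% (2.19% higher, 2.6% lower). It was not called without the block (adjusted p = 0.134), with the looser filter (adjusted p = 0.114) or without any single replicate (adjusted p from 0.0584 to 0.181).

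Against 0 h, cells kept at pH 7.4 without IL-2 differed in all 10 genes, with 5 higher and 5 lower, where 75.2% of all genes were called (36.9% higher, 38.3% lower). The higher genes were Il7r, Il15ra (0.72), Il18r1 (0.73), Il6ra (0.94) and Il10ra (0.37), and the lower ones Il4ra (-0.29), Il21r (-1.57), Il12rb1 (-2.21), Il12rb2 (-0.47) and Il18rap (-0.92), all as log2 fold changes. The call of Il4ra was lost without replicate 1 or 2, and those of Il12rb2 and Il10ra without replicate 2 or 3. Fitting only the groups compared also lost Il4ra (edgeR, adjusted p = 0.0543) and Il10ra (adjusted p = 0.0991). Scaling by total counts lost Il4ra as well (adjusted p = 0.0708). With IL-2 at pH 7.4, 6 of 10 differed from 0 h (2 higher, 4 lower; background 59.9%, 29% higher and 30.9% lower). Il6ra fell most (-2.05 ± 0.41, edgeR, adjusted p = 7.35e-05), and Il4ra fell (-0.47 ± 0.09, adjusted p = 6.45e-05), as did Il7r (-0.60 ± 0.21, adjusted p = 0.0125) and Il21r (-0.33 ± 0.08, adjusted p = 0.000934). Il15ra (0.30 ± 0.07, adjusted p = 0.000722) and Il12rb1 (0.35 ± 0.12, adjusted p = 0.011) rose. The fall of Il7r was not called without the replicate block (adjusted p = 0.144) or without replicate 3, 4 or 5. The rise of Il12rb1 was not called without replicate 5 (adjusted p = 0.0516) or with total counts (adjusted p = 0.0551). Il18r1 (-0.03, adjusted p = 0.822) and Il18rap (0.12, adjusted p = 0.214) were not called. Both comparisons share the 0 h libraries. Among those, replicate 5 correlated least with its group (r = 0.976), and the counts of 10 and 6 were the same without it.

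When the 7 groups were put in order of level for each gene, 20 of the 60 steps between neighbouring groups differed past the threshold. Under the alternatives this count ranged from 14 to 26. The order was taken from the same libraries that were tested. The share of such steps over all genes was not computed, so the count does not set the receptor genes apart. Il7r had the most called steps in the main fit, 5 of 6. They ran from pH 7.4, pH 7 and pH 6.6 without IL-2 through pH 6.6 with IL-2 and 0 h to pH 7.4 with IL-2. That last group did not differ from pH 7 with IL-2 (edgeR, adjusted p = 0.93). Without the replicate block, the Il7r step from pH 7.4 to pH 7 without IL-2 was not called (adjusted p = 0.406). Nor were the steps between the pH 6.6 groups (adjusted p = 0.0642) and from 0 h to pH 7.4 with IL-2 (adjusted p = 0.144). Il12rb1 and Il21r had 4 steps each. Il12rb1 ran from pH 7 and pH 7.4 with IL-2 down to pH 6.6 without IL-2, and Il21r from 0 h down to pH 7.4 without IL-2. For Il18r1 the groups formed levels of pH 6.6 with and without IL-2, then pH 7.4 and pH 7 without IL-2, then the remaining groups. Il4ra and Il10ra had no called step, Il15ra, Il12rb2 and Il18rap 1 each and Il6ra 2.

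Between genes, levels were compared per kilobase of merged exons. At pH 7.4 without IL-2 the order was Il12rb2 (83.8 CPM per kilobase), Il4ra (58.5), Il10ra (55.6), Il18r1 (34.7), Il21r (26.1), Il7r (19.8), Il12rb1 (13.2), Il18rap (10.2), Il15ra (8.08) and Il6ra (0.154). With IL-2 at pH 7.4 Il12rb2 was again highest (146 CPM per kilobase), followed by Il12rb1 (78.3) and Il21r (62.0), and the lowest were Il7r (0.408) and Il6ra (0.0188). With coding length in place of exon length, 4 of the 10 genes kept their rank at pH 7.4 without IL-2.

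Across the 35 libraries, log2 CPM of Il21r and Il12rb1 correlated with r = 0.90, and Il7r correlated negatively with Il21r (-0.91), Il18rap (-0.86) and Il12rb1 (-0.83). These correlations describe libraries that fall into 7 groups and share their normalization. After group means were taken out, the highest were Il18r1 with Il18rap (0.67) and Il7r with Il12rb2 (0.63). Differences between replicates were left in. Replicate 1 stood high for Il12rb2 at pH 7.4 and pH 7 with IL-2, and for Il7r at pH 6.6 without IL-2. The part of that replicate in the 0.63 was not tested. Among genes whose mean log2 CPM was 3 or more, the one most like Il7r across the 35 libraries was Nlk (r = 0.98), followed by Zfp386 (0.97) and Ccdc125 (0.97). The leading gene for Il12rb1 was Irf8 (0.99), for Il21r Klhl30 (0.98), for Il18r1 Rel (0.95) and for Il18rap Socs2 (0.94). For Il15ra it was Gpr183 (0.88), for Il12rb2 Ankib1 (0.86), for Il4ra Gramd4 (0.85), for Il6ra Maml2 (0.83) and for Il10ra Iah1 (0.83).

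Of 9 partner chains, 7 passed the filter. Counts for these chains and for the lists that follow are to be read against the shares of all genes called, which were 76.3% for pH 6.6 with IL-2 (35.4% higher, 40.9% lower) and 80.4% for IL-2 at pH 7.4 (39.3% higher, 41.1% lower). Nothing particular to a list is drawn from its count. With IL-2, pH 6.6 raised Il6st, the gp130 chain used by IL-6 (log2 fold change 0.91), and lowered Il2rb (-0.79), Il2ra (-0.61) and Il1rap (-0.59). Il2rg (-0.06, adjusted p = 0.506), Il10rb (0.08, adjusted p = 0.339) and Il27ra (-0.17, adjusted p = 0.122) were not called. Without IL-2, pH 6.6 raised Il2ra (0.65), lowered Il2rb (-0.51), Il10rb (-0.56), Il27ra (-0.94) and Il1rap (-0.43), and left Il2rg (0.04, adjusted p = 0.613) and Il6st (0.03, adjusted p = 0.797) uncalled. IL-2 at pH 7.4 raised Il2ra (1.58), Il2rb (0.71) and Il2rg (0.23), lowered Il6st (-1.10), Il10rb (-0.47) and Il27ra (-0.24), and gave 0.14 for Il1rap (adjusted p = 0.207). Il13ra1 and Il23r did not pass the filter. Part of the exons of Il2rg (30.5%) is shared with another gene on the same strand.

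Downstream of the receptors, 8 of 11 JAK and STAT genes rose and 2 fell at pH 6.6 with IL-2, while IL-2 at pH 7.4 raised 1 and lowered 6 (all genes 76.3% and 80.4% called). Stat4, the main STAT of IL-12, moved most, by 1.71 with acidity and -1.78 with IL-2, and 26.7% of its exon bases are shared with Gm28177 on the same strand. Stat3 was the gene that rose with IL-2 (0.27). In the relay of the IL-18 receptor, 4 of 9 genes rose and 3 fell with acidity, and 1 rose and 5 fell with IL-2, so that 7 and 6 of 9 were called against the same 76.3% and 80.4%. Irak2, a member of that relay, gave 2.29 and -1.73. Sigirr, an inhibitor of this receptor family, fell by 0.75 with acidity, and Map3k7 rose by 0.17 with IL-2. All values are log2 fold changes, and the medians over the lists were 0.63 and -0.39 for the JAK and STAT genes and 0.11 and -0.28 for the relay.

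Among 11 feedback inhibitors, 4 rose and 2 fell at pH 6.6 with IL-2, and 5 rose and 3 fell with IL-2 at pH 7.4, so that 6 and 8 of 11 were called where 76.3% and 80.4% of all genes were. Socs3 gave 2.01 and -0.64, Ptpn6, a phosphatase, fell by 1.04 with acidity, and Cish, a known STAT5 target, rose by 3.10 with IL-2. Of 15 regulators of receptor genes, 10 rose and 3 fell with acidity, and 4 rose and 10 fell with IL-2. The repressor gene Bcl6 gave 4.12 and -4.34, and Eomes, a T-box factor known to act on the receptor for IL-2 and IL-15, gave -1.69 and 2.10. The medians were -0.05 and 0.13 for the inhibitors and 0.84 and -0.68 for the regulators. Against the backgrounds of 76.3% and 80.4% called, 13 and 14 of the 15 regulators were called.

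Of 6 genes for receptor shedding and trafficking, 1 rose and 3 fell with acidity, and 3 rose and 1 fell with IL-2, or 4 of 6 called in each against 76.3% and 80.4% of all genes. Furin gave 1.24 and -0.95, Adam17, which cleaves the IL-6 receptor, fell by 0.51 with acidity, and Rhbdf2, which carries ADAM17 to the surface, rose by 0.83 with IL-2. The list medians were -0.26 and 0.20. Among 14 other cytokine receptors, of which 11 passed the filter, 7 rose and 1 fell with acidity and 2 rose and 9 fell with IL-2, with medians of 0.61 and -0.64. Of all genes, 35.4% rose and 40.9% fell with acidity, and 39.3% rose and 41.1% fell with IL-2. Ifngr1 gave 1.95 and -1.52, and Tnfrsf1a rose by 0.46 with IL-2. Of 11 ligand genes 4 passed the filter (Il15, Il4, Il18 and Il10), of which 2 rose and 1 fell with acidity, and 2 rose and 2 fell with IL-2, against the same shares.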

How the data were processed

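Polyadenylated RNA from 35 CTL cultures was sequenced as stranded single reads. The authors deposited raw read counts per gene for each library, with no normalization. The submitters' processing notes name cutadapt 1.8, STAR 2.5.2b, HTSeq 0.6.1 and GRCm38, without their roles, and the strand setting was not given in the sources used here. Each file ends in 5 entries that name no gene, which were left out of library sizes and tests. Reads placed at several positions were 32.8% to 48.3% of the reads listed, reads outside genes 2.58% to 11.1% and ambiguous reads 0.871% to 0.997%, so genes with near-identical copies can be undercounted. Total counts on genes were 16721319 to 34033340 per library (median 24730020), and intervals from replicates include this counting error. Symbols were matched for 48349 of 48709 identifiers, and all 35 libraries were used.

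In R 4.3.3, edgeR 4.0.16 (with limma 3.58.1) kept 13819 genes by filterByExpr (minimum count 10), scaled libraries by TMM and fitted robust quasi-likelihood models to all 35 libraries with terms for group and replicate number. The common biological coefficient of variation was 0.12. The 11 contrasts were called at a Benjamini-Hochberg adjusted p-value under 0.05 over all genes tested. SE is that of the log2 fold change. Log2 CPM for correlations used a prior count of 1. GEO's design text states that cells of each biological replicate were cultured under all conditions, which is where the pairing comes from. Deviations from group means correlated with r over 0.1 in 75 of 105 same-numbered pairs (median 0.337), against 114 of 420 pairs with different numbers (median -0.0808). No 2 libraries of a group were duplicates (70 pairs, lowest chi-square per degree of freedom 6.65). The scripts were tested on simulated data.

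The receptor genes and the pathway lists were chosen with earlier results of these data known. Named genes are all receptor genes, the partner chains, the largest called rise and fall of each other list in the comparisons of pH 6.6 with pH 7.4 with IL-2 and of IL-2 at pH 7.4 (mean log2 CPM of at least 3), and for each receptor gene the 3 genes with the highest correlation, of which the first is given for most. The ligand genes were too low for that rule. A result that this rule would name is not reported here. Alternatives were RLE size factors, total counts only, DESeq2 1.42.0, looser and stricter filters, no block, only the groups compared, other gene lengths and each replicate left out. Their use for the lists and for the order of levels, and a fit without the 0 h library of replicate 5, were chosen after seeing the data.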

Additional observations from a re-analysis of the deposited data

Results flagged for a closer look

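In 5 of 70 sets of 5 libraries (10 genes in 7 groups), a single library lay further from the rest than Dixon's critical value of 0.71 allows, where chance gives about 1 in 20. Of these, 4 were libraries of replicate 1. Il7r at pH 6.6 without IL-2 was 18.56 CPM in replicate 1, against 7.22 to 9.18 CPM in the others. Il15ra at pH 7 with IL-2 was 37.39 CPM in replicate 1, against 30.2 to 32.1 CPM. Il12rb2 with IL-2 was 954.2 CPM at pH 7.4 (others 392.6 to 496.6) and 1012 CPM at pH 7 (others 520.2 to 566.5), both in replicate 1. At 0 h Il12rb2 was 241.5 CPM in replicate 5, against 470.2 to 552.7 CPM.

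The effect of pH 6.6 with IL-2 differed from that without IL-2, by edgeR's test of the interaction, in 8 of the 10 genes, where 67% of all genes tested were called. The differences of the log2 effects were 4.99 for Il7r, 4.12 for Il6ra, 0.77 for Il18r1, 0.40 for Il15ra, -0.66 for Il12rb2, -0.82 for Il18rap, -0.90 for Il21r and -1.19 for Il12rb1. For pH 7 the difference was 0.37 in Il15ra, where 4.79% of all genes were called. The Il12rb2 difference was not called without replicate 1 (-0.35, adjusted p = 0.0925), without replicate 2 (-0.58, adjusted p = 0.0631) or with total counts (-0.44, adjusted p = 0.0809). The Il15ra difference at pH 7 was not called whichever replicate was left out (adjusted p from 0.0584 to 0.181).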

How the results depend on the processing

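Of 66 called effects on a receptor gene, none reversed under the alternatives run, and 15 were lost under at least 1 of them. Of 44 effects not called, 11 were called under at least 1. With the replicate numbers as a block, 2 receptor genes and 19 list genes were called at pH 7 with IL-2, 1 and 2 without IL-2 at the same pH, 5 and 31 for IL-2 at pH 6.6, and 1 and 4 for the interaction at pH 7. With no replicate block these became 0 and 10, 0 and 0, 2 and 19, and, for the receptor genes in the interaction, 0. In the other comparisons dropping the block moved no count by over 1.5 times. Fitting only the groups compared gave 4 and 36, 3 and 11, and 14 list genes in the interaction at pH 7. The looser filter gave 0 receptor genes at pH 7 with IL-2 and in that interaction, and 1 list gene at pH 7 without IL-2. Scaling by total counts gave 1 receptor gene at pH 7 with IL-2 and 7 list genes in the interaction, where DESeq2 gave 8. Leaving out a replicate gave, for receptor and list genes, 0 to 2 and 6 to 19, 0 to 3 and 0 to 3, 3 to 5 and 19 to 26, and 0 to 1 and 2 to 7. By coding length 4 genes kept their rank. The cause of these shifts was not tested.

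Reversals were all among effects not called. In log2, total counts turned Il7r at pH 7 with IL-2 to 0.0129, Il4ra for IL-2 at pH 7 to -0.111, Il15ra for IL-2 at pH 6.6 to 0.0567 and Il21r in the interaction at pH 7 to 0.0193. The stricter filter gave -0.0312 for Il4ra for IL-2 at pH 7, fitting only the groups compared 0.0204 for Il15ra for IL-2 at pH 6.6, no block -0.0093 for Il18rap in the interaction at pH 7, and RLE and DESeq2 0 and -2e-04 for Il10ra at pH 7 with IL-2. Without a replicate the ranges that crossed 0 were -0.0304 to 0.0721 (Il18r1) and -0.0698 to 0.087 (Il10ra) at pH 7 given IL-2, -0.035 to 0.0727 (Il4ra) at pH 7 lacking it, -0.0992 to 0.0956 (Il4ra) for IL-2 at pH 7, and -0.0845 to 0.0656 (Il15ra) and -0.0249 to 0.0513 (Il18r1) for IL-2 at pH 6.6. They were -0.0726 to 0.0569 (Il18r1) and -0.239 to 0.0484 (Il10ra) for pH 7.4 with IL-2 against 0 h, -0.0084 to 0.211 (Il4ra) in the interaction at pH 6.6, and -0.0843 to 0.0607 (Il21r), -0.0657 to 0.0888 (Il18rap) and -0.0867 to 0.373 (Il6ra) in that at pH 7.

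Scaling by total counts moved the median of all genes by -0.15 at pH 6.6 without IL-2, -0.16 and -0.12 for IL-2 at pH 7.4 and pH 7, and 0.23 in the interaction at pH 6.6. The share of calls that were higher went from 47.2% to 34.7% at pH 6.6 without IL-2, 48.2% to 65.7% at pH 7 with IL-2, 55.5% to 74.6% for IL-2 at pH 6.6, 51.1% to 62.8% in the interaction at pH 6.6 and 45.8% to 60.8% in that at pH 7. Depth limits Il6ra most, with at most 69 reads in a library.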
